A study of Mus musculus with 14 samples.

Results

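The genes Gdpd3, Slx1b, Serpinf2, Rnf167, Pisd-ps1, Cyp4f15, Lars2 and Gpr45 were chosen by their measured levels in these same libraries, because the levels differed between MyTrMaSt and WT brains, several of them already under PBS. They are 8 of the 13866 genes listed in the count table, and all 8 were among the 11852 genes with enough counts to be tested. The 14 libraries came from brain RNA of mice of 19 days, 1 library per mouse by the study's account, in 4 groups. WT mice were C57BL/6JOlaHsd, given PBS (WT + PBS, n = 3) or 100 mg/kg CBE (WT + CBE, n = 3). MyTrMaSt null mice are deficient in 4 adaptors, those encoded by Tmem173 (STING), Mavs, Ticam1 (TRIF) and Myd88, and were given PBS (MyTrMaSt + PBS, n = 3) or 100 mg/kg CBE (MyTrMaSt + CBE, n = 5). The injections were daily and intraperitoneal, from the second postnatal week. CBE (conduritol B-epoxide) binds covalently to glucocerebrosidase, and its target's substrate glucosylceramide then builds up in lysosomes, as it does in Gaucher disease. The labels give no strain background for MyTrMaSt mice, so the 4 deletions cannot be told apart from other differences between the 2 mouse lines.

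The 4 deleted genes encode adaptors through which receptors for microbial and nucleic acid ligands signal, and which lead to type 1 interferon. The 8 genes chosen here share no such function. Gdpd3 encodes a lysophospholipase D of the glycerophosphodiester phosphodiesterase family, and Pisd-ps1 is a transcribed pseudogene of Pisd, the mitochondrial phosphatidylserine decarboxylase. Slx1b encodes the nuclease subunit of the SLX1-SLX4 complex, which cuts branched DNA, and Lars2 encodes the leucyl-tRNA synthetase of mitochondria. Serpinf2 encodes alpha-2-antiplasmin, the main inhibitor of plasmin, Rnf167 a RING ubiquitin ligase of endosomal and lysosomal membranes, Cyp4f15 a cytochrome P450 of a family that hydroxylates fatty acids and leukotrienes, and Gpr45 an orphan G protein-coupled receptor of the brain.

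Several features of the libraries bear on the results below. Totals ran from 1290616 to 3704691 counts. WT + PBS replicate 1 had the lowest total and stood apart from its group, with a chi-square per degree of freedom of 22.3 and 20.3 against the other 2 libraries, where all other pairs within a group gave 2.45 to 7.84. It held the highest level of its group for 7 of the 8 genes, the exception being Serpinf2. Xist, the RNA that marks the inactive X chromosome of females, had 0 counts in all 3 WT + PBS libraries and 32 to 46 in the MyTrMaSt + PBS libraries. Under PBS the genotype and the sex of the mice therefore cannot be told apart. Under CBE each genotype had 1 library with at most 1 Xist count, WT + CBE replicate 2 and MyTrMaSt + CBE replicate 4, and their values are given beside the group values. WT + CBE replicates 1 and 3 held 47 and 30 Xist counts, where the WT + PBS libraries held 0. Changes with CBE in WT are therefore partly mixed with sex, and those given below cannot be assigned to CBE alone. Of the deleted genes, Myd88 had a lower mean level in MyTrMaSt than in WT brains under both treatments, whereas Tmem173 had a mean of 6.09 CPM in MyTrMaSt + PBS and 1.69 CPM in WT + PBS, so that 3' reads, which may lie outside the deleted parts, do not check the labels for all 4 genes. Markers of brain cells were present in every group, and the only liver marker listed, Apoa1, reached at most 3.24 CPM in a library. Levels are counts scaled by TMM to the size of the library (CPM).

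DEGs were genes with a difference of at least 2-fold and an adjusted p below 0.05 in edgeR's quasi-likelihood test over all tested genes. Between the genotypes under PBS, 3 of the 8 genes passed both thresholds, where 0.160% of all tested genes did, and under CBE 7 of the 8 passed, against 2.01%. The groups did not overlap for 4 of the 8 genes under PBS (20.2% of all tested genes) and for 8 of 8 under CBE (9.96%). These counts describe the choice of the genes and are not a result about them. They also moved with the setting, between 1 and 5 genes under PBS and between 4 and 8 under CBE over the alternatives tried. The treatment comparisons were not part of the rule, but they share the CBE libraries with it and are not independent of it.

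**Figure D1:**
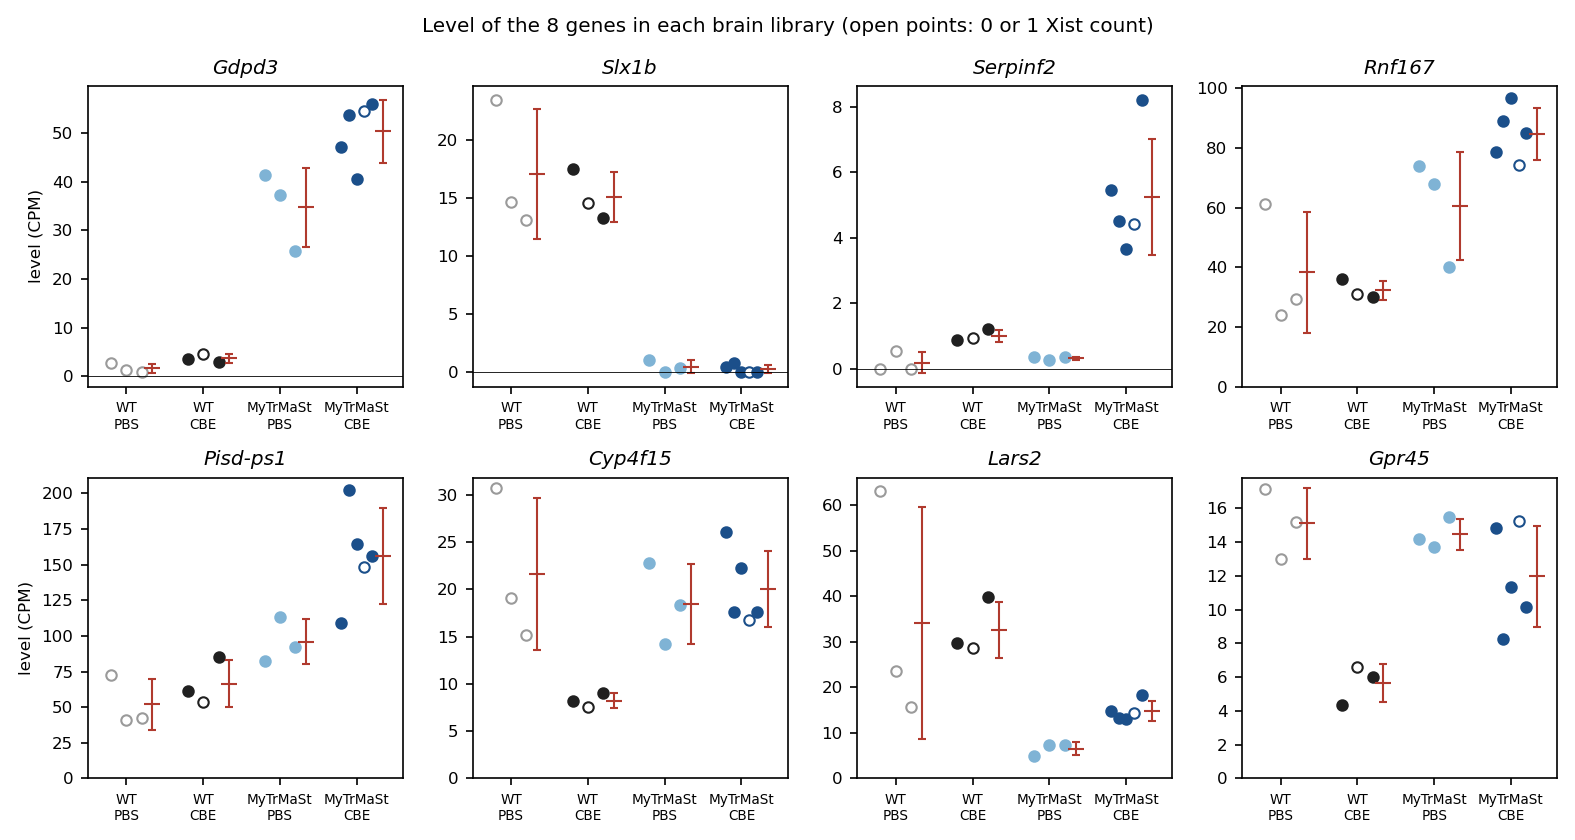
Level of each of the 8 genes (vertical axis, CPM, linear) in the 14 libraries, by group (horizontal axis). Points are single mice, open where Xist had 0 or 1 count, and red bars give the mean and SD of the group. Gdpd3 lay between 25.7 and 56.0 CPM in the MyTrMaSt libraries and at most 4.69 CPM in the WT libraries, and Slx1b showed the opposite order.

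The phospholipase gene Gdpd3 had the highest fitted fold between the genotypes among the members with no group at or under 3 counts. It lies on chromosome 7 of mm10 at chr7:126766414-126775645, on the plus strand. Its levels in WT + PBS were 2.71, 1.38 and 0.844 CPM, and in MyTrMaSt + PBS they were 41.4, 37.2 and 25.7 CPM. After CBE they were 3.49, 4.69 and 3.01 CPM in WT, and in MyTrMaSt 47.1, 53.7, 40.5, 54.6 and 56.0 CPM. Every MyTrMaSt library was thus above every WT library, also among the 2 CBE libraries without Xist, at 54.6 and 4.69 CPM. The fitted difference was 4.57 on the log2 scale under PBS and 3.73 under CBE. In WT libraries the gene rested on only 2 to 12 counts, so that its WT level is poorly determined. CBE changed it by 0.53 ± 0.19 (log2, SE) in MyTrMaSt (adjusted p = 0.0888, edgeR), not past the threshold. It reached the level of the count filter in 0 WT + PBS libraries and 1 WT + CBE library, and passed the filter through the MyTrMaSt libraries. Its change with CBE in WT, 1.37 ± 0.47, is therefore a description and no p is given. Without WT + PBS replicate 1 this change was 1.65, and without MyTrMaSt + PBS replicate 3 it was 1.37.

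Slx1b had the opposite pattern and lies on the same stretch of chromosome 7, at chr7:126688927-126695783 on the minus strand. Its lower coordinate, the 3' end, is 77.5 kb from the start of Gdpd3. Its levels were 23.5, 14.6 and 13.1 CPM in WT + PBS, and 17.5, 14.5 and 13.3 CPM in WT + CBE. The MyTrMaSt + PBS libraries held 3, 0 and 1 counts and the MyTrMaSt + CBE libraries 1, 2, 0, 0 and 0 counts. No MyTrMaSt library exceeded 3 counts, the limit below which a level was not resolved here. By the counts summed over each group, Slx1b was 36.9-fold lower in MyTrMaSt under PBS (110 against 4 counts, exact 95% interval 14.005 to 138, counting error only) and 64.0-fold lower under CBE (113 against 3 counts, 21.4 to 315). The CBE libraries without Xist had 0 counts in MyTrMaSt and 31 counts in WT. In WT the change with CBE was -0.09 ± 0.34 (adjusted p = 0.918, edgeR), and both MyTrMaSt groups were too low for a fold. Over the 14 libraries the log2 levels of Gdpd3 and Slx1b had a Pearson correlation of -0.913, a description of libraries that share the same genotype split.

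The promoters of these neighbours are shown because the genes differed between the genotypes in opposite directions and lie close together on chromosome 7. That of Serpinf2 is shown because its counts were above 3 per library in MyTrMaSt + CBE alone. Each runs from 250 bases before to 50 bases after the start of the gene, from RefSeq on GRCm38.p6 (the same build as mm10), 5' to 3' on the strand of the gene. Capitals mark CpG dinucleotides, the sites of DNA methylation. The windows are chr7:126766164-126766463 for Gdpd3, chr7:126695734-126696033 for Slx1b and chr11:75439452-75439751 for Serpinf2.
Gdpd3: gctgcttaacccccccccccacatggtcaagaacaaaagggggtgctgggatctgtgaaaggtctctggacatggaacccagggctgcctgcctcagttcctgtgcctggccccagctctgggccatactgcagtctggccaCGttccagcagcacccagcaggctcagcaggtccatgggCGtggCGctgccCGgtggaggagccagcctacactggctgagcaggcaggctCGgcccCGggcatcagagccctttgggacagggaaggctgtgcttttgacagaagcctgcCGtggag
Slx1b: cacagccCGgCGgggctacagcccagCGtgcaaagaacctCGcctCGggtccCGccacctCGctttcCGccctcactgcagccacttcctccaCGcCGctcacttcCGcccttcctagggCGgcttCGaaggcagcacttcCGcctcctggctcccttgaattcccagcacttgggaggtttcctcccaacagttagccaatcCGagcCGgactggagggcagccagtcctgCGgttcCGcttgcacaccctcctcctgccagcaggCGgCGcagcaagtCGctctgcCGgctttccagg
Serpinf2: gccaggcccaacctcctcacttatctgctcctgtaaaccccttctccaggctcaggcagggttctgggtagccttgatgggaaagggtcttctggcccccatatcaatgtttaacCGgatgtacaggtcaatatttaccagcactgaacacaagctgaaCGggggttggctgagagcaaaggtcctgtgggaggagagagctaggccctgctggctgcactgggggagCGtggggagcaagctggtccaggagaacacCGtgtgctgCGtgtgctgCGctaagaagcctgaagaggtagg
The Slx1b window holds 22 CpG sites, more than 76.9% of the 32851 promoters in the table. Those of Gdpd3 and Serpinf2 hold 7 and 6, at or near the median of 7. A promoter was found for 7 of the 8 genes, all but Pisd-ps1, and the other 4 hold 23 (Rnf167), 18 (Lars2), 14 (Gpr45) and 2 (Cyp4f15) CpG sites. None of the 7 windows holds, on either strand, the core of the interferon-stimulated response element, present in 3.44% of all promoters, or the STAT site TTCNNNGAA, present in 8.30%. The E-box CACGTG (7.15% of all promoters) and the TATA box TATAAA (13.6%) were not found in them either. The CCAAT box CCAAT was found in the windows of Slx1b, Rnf167 and Cyp4f15, and in 37.4% of all promoters. These matches describe letters only.

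Reads could be shared with other genes at some of these loci. Exons of Gdpd3 share 298 bases with Gm9967, which runs on the other strand, and exons of Slx1b overlap Bola2 on the opposite strand by 360 bases and Gm6939 on the same strand by 219 bases. The last 500 bases of the Gdpd3 transcript share 35.2% of their 30-base words with Gm9967, and those of Slx1b share 20.6% with Gm6939. Since the use of strand in the counting is not stated, reads in the overlaps of Gdpd3 with Gm9967 and of Slx1b with Bola2 cannot be told apart. Gm6939 runs on the strand of Slx1b, so that reads in their overlap cannot be told apart with strand either. The overlapping gene that is listed, Bola2, had means of 262 ± 204 CPM in the WT libraries with PBS and 156 ± 7.21 with CBE, and of 112 ± 27.5 and 162 ± 33.4 CPM in the MyTrMaSt libraries (SD).

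Serpinf2, the antiplasmin gene, was at or under 3 counts in every library except those of MyTrMaSt + CBE. It lies at chr11:75431736-75439501 on the minus strand. The WT + PBS libraries held 0, 2 and 0 counts, the MyTrMaSt + PBS libraries 1 count each, and the WT + CBE libraries 3, 2 and 2 counts. The MyTrMaSt + CBE libraries held 14, 12, 9, 9 and 21 counts, or 5.46, 4.51, 3.65, 4.43 and 8.22 CPM. All 5 lay above the MyTrMaSt + PBS libraries, with a ratio of summed counts of 16.8 (65 against 3 counts, exact 95% interval 5.50 to 83.5, counting error only). Because Serpinf2 passed the count filter through this group alone, these values are a description and no p is given. The ratio of MyTrMaSt + CBE to WT + CBE was 5.46 (65 against 7 counts, 2.51 to 14.1), and the libraries without Xist had 9 and 2 counts. The WT groups did not overlap, at 0 to 0.553 CPM with PBS and 0.873 to 1.21 CPM with CBE, but both were at the limit of 3 counts and no fold is given.

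The primers with which the study measured Serpinf2 by PCR are shown because they read another part of the transcript than the 3' libraries.
Serpinf2 forward: ttctcctcaacgccatcca
Serpinf2 reverse: ggtgaggctcgggtcaaac
The forward primer matches exon 7 (chr11:75436393-75436411) and the reverse primer exon 8 (chr11:75436006-75436024) of the 10 exons of the 2192-base transcript, 1436 and 1393 bases from its end. The last 500 bases of Serpinf2 share no 30-base word with another gene.

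Of the other genes of the plasmin system, A2m rose with CBE in both genotypes, and 0 of the 8 tested were DEGs between the genotypes with edgeR, DESeq2 or limma (unadjusted p below 0.05 for 0 under PBS and 3 under CBE, where 16.8% and 8.06% of all genes had one). Of 8 tested genes of the list without Serpinf2, 3 were DEGs in WT with CBE, all higher, where 6.40% of all tested genes were DEGs, and 2 in MyTrMaSt, both higher, against 3.89%. Plaur and F13a1 reached the level of the count filter in CBE libraries alone, so that their calls are not read as results. The median log2 change of the list was 0.60 in WT and 0.56 in MyTrMaSt, where the medians over all tested genes were -0.02 and 0.01. A2m, a broad protease inhibitor that binds plasmin, rose by 4.09 ± 0.27 (log2, SE) in WT (adjusted p = 1.4e-08, edgeR) and by 2.89 ± 0.24 in MyTrMaSt (adjusted p = 3.5e-07). Plaur, the urokinase receptor, had 3 to 11 counts per WT library without CBE and 28 to 80 with it, against 3 to 6 and 16 to 53 counts per MyTrMaSt library. F13a1, the factor XIII subunit that links antiplasmin to fibrin, likewise had 0 to 5 and 6 to 19 counts per WT library and 4 to 12 and 5 to 14 per MyTrMaSt library. Plg, which encodes plasminogen, was not among the listed genes.

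Rnf167 and Pisd-ps1 were higher in MyTrMaSt brains, by less than Gdpd3. Rnf167 lies at chr11:70647230-70651421 on the plus strand. In WT brains its levels were 61.4, 24.0 and 29.5 CPM with PBS and 36.1, 31.0 and 30.1 CPM with CBE. In MyTrMaSt brains they were 73.9, 67.9 and 40.2 CPM with PBS and 78.7, 89.0, 96.9, 74.3 and 84.9 CPM with CBE. Under PBS the genotypes overlapped, because WT + PBS replicate 1 was above MyTrMaSt + PBS replicate 3, and under CBE all MyTrMaSt libraries were above all WT libraries. The fitted difference was 0.76 on the log2 scale under PBS, or 1.19 without WT + PBS replicate 1 and 0.48 without WT + PBS replicate 2, and 1.38 under CBE, and the CBE libraries without Xist stood at 74.3 and 31.0 CPM. With CBE it changed by -0.14 ± 0.29 in WT (adjusted p = 0.828) and by 0.48 ± 0.24 in MyTrMaSt (adjusted p = 0.226, edgeR). Its exons overlap those of Slc25a11 on the opposite strand by 189 bases, and Slc25a11 had means from 307 to 394 CPM in the 4 groups.

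Pisd-ps1 lies at chr11:3124002-3131945 on the plus strand. In WT its levels were 72.2, 41.2 and 42.2 CPM with PBS and 61.1, 53.5 and 85.0 CPM with CBE. In MyTrMaSt they were 82.2, 113.6 and 92.3 CPM with PBS and 108.7, 202.8, 164.5, 148.2 and 156.2 CPM with CBE. The genotypes did not overlap under either treatment, with a difference of 0.94 on the log2 scale under PBS, or 1.20 without WT + PBS replicate 1, and 1.24 under CBE, and 148.2 against 53.5 CPM in the CBE libraries without Xist. The change with CBE was 0.40 ± 0.26 in WT (adjusted p = 0.370) and 0.70 ± 0.22 in MyTrMaSt (adjusted p = 0.0553, edgeR). The parent gene Pisd had means of 99.5 ± 33.6 and 109 ± 6.60 CPM in WT and 87.9 ± 4.22 and 104 ± 13.01 CPM in MyTrMaSt with PBS and CBE (SD), which overlap. Reads of the pseudogene are uncertain, since 31.6% of the 30-base words at its 3' end occur in other genes, 28.0% in Pisd-ps2.

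Cyp4f15 and Gpr45 did not separate the genotypes under PBS and were lower in WT + CBE than in the other groups. Their difference between genotypes lay in the CBE libraries alone, so the low WT + CBE values are what chose them. The tests of CBE in WT and of the interaction reuse these values, and for both genes they are descriptions. Cyp4f15 lies at chr17:32685631-32703352 on the plus strand. Its levels were 30.7, 19.1 and 15.2 CPM in WT + PBS and 22.8, 14.3 and 18.3 CPM in MyTrMaSt + PBS. With CBE they were 8.15, 7.51 and 9.04 CPM in WT and 26.1, 17.7, 22.3, 16.7 and 17.6 CPM in MyTrMaSt. WT + CBE was thus the one low group, below every other library. Cyp4f15 fell by 1.32 ± 0.30 (log2, SE) with CBE in WT (adjusted p = 0.00687, edgeR, lower in 3 of 3 libraries), and its change in MyTrMaSt was 0.13 ± 0.23 (adjusted p = 0.771). The 2 treated groups differed by 1.29. A fit to the WT libraries alone gave a change of -1.32 with an adjusted p of 0.0620.

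Gpr45 lies at chr1:42952872-43035451 on the plus strand. With PBS its levels were 17.1, 12.99 and 15.2 CPM in WT and 14.2, 13.7 and 15.5 CPM in MyTrMaSt. With CBE they were 4.36, 6.57 and 6.03 CPM in WT and 14.8, 8.26, 11.3, 15.3 and 10.2 CPM in MyTrMaSt. WT + CBE was again below all other libraries. Gpr45 fell by 1.42 ± 0.29 with CBE in WT (adjusted p = 0.00323, edgeR, lower in 3 of 3 libraries), and its change in MyTrMaSt was -0.28 ± 0.22 (adjusted p = 0.470). The Xist-free libraries stood at 6.57 CPM in WT + CBE and 15.3 CPM in MyTrMaSt + CBE for Gpr45, and at 7.51 and 16.7 CPM for Cyp4f15. With the Xist level as a covariate the change of Gpr45 in WT was -1.07 (adjusted p = 0.0986), no longer past the threshold. The log2 levels of both genes had a Pearson correlation of 0.816 over the 14 libraries, which share the low WT + CBE group.

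With CBE in WT, 2 of the 8 genes, Cyp4f15 and Gpr45, were thus DEGs, both lower, where 6.40% of all tested genes were DEGs and 1.21% were lower. Because their WT + CBE values chose both genes, this count is not a result about them. Their low WT + CBE levels also go against the name under which the genes were grouped, that of genes little changed by CBE. The 8 genes are therefore described here by their difference between genotypes alone. With CBE in MyTrMaSt 1 of the 8 was a DEG, against 3.89% of all genes (3.23% higher). It was Serpinf2, which passed the count filter through MyTrMaSt + CBE alone, so that nothing is read from this call. The CBE and PBS groups did not overlap for 4 of the 8 genes in WT (27.9% of all genes) and for 3 of the 8 in MyTrMaSt (22.5%). The difference of the responses was tested as a genotype by treatment interaction, in which 0 of the 8 genes passed an adjusted p of 0.05 with edgeR or limma and 1 (Cyp4f15, adjusted p = 0.0452) with DESeq2, where edgeR called 0.489% of all genes. Before adjustment 3 of the 8 had a p below 0.05, as had 12.5% of all genes. They were Cyp4f15 (interaction 1.46, adjusted p = 0.129), Gpr45 (1.14, adjusted p = 0.230) and Lars2 (1.10, adjusted p = 0.394). With edgeR or limma the fall of Cyp4f15 and Gpr45 in WT is therefore not shown to differ from their change in MyTrMaSt. The DESeq2 call of Cyp4f15 reuses the WT + CBE values that chose the gene, and is a description.

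**Figure D2:**
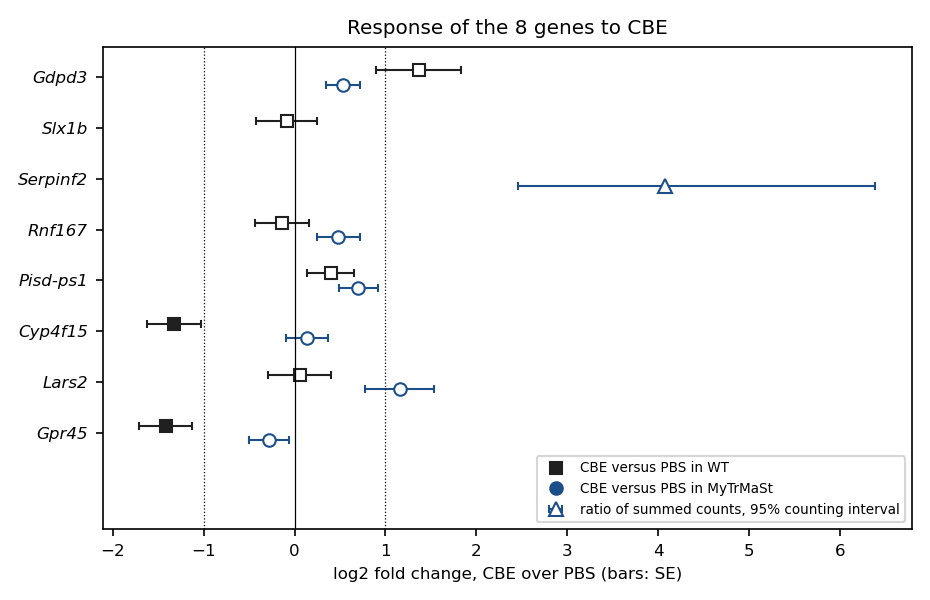
Log2 fold change of CBE over PBS (horizontal axis) for each gene (vertical axis), with SE bars, in WT (black squares) and MyTrMaSt (blue circles), and filled where the gene was a DEG. The dotted lines mark 2-fold. Cyp4f15 and Gpr45 lie past -1 in WT and near 0 in MyTrMaSt, and the open triangle gives the ratio of summed counts of Serpinf2 in MyTrMaSt, 16.8-fold, with its 95% counting interval. Serpinf2 in WT and Slx1b in MyTrMaSt are not drawn because both groups were at the limit of 3 counts.

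Some markers of brain cell types differed with CBE in the same libraries. In WT 1 of 5 neuron markers was a DEG (lower), as were 2 of 4 astrocyte and 1 of 4 microglia markers (higher) and 0 of 4 oligodendrocyte markers, and in MyTrMaSt 0, 1, 1 and 0 of these were, the called ones higher. The neuron marker, Slc17a7, rested on 1 library, as its change of -1.60 was -0.43 without WT + PBS replicate 1 (adjusted p = 0.109, edgeR), and its call was also lost without any 1 of the WT + CBE libraries. The microglia marker, Cx3cr1, lost its call in MyTrMaSt without any 1 of the MyTrMaSt + PBS libraries (adjusted p = 0.0541 to 0.0897). The summed level of 5 neuron markers was 3402 to 3710 CPM in WT + PBS and 2814 to 3047 CPM in WT + CBE, against 3733 to 4635 and 3107 to 3555 CPM in MyTrMaSt. The sum of 4 oligodendrocyte markers was 14561 to 17231 CPM in WT + PBS and 9041 to 11636 CPM in WT + CBE, and that of 4 astrocyte markers 730 to 876 and 1756 to 1898 CPM. In MyTrMaSt the oligodendrocyte sum was 14741 to 17400 CPM with PBS and 10877 to 14807 CPM with CBE, where the groups overlapped, and the astrocyte sum 788 to 900 and 1438 to 1705 CPM. The sum of 4 microglia markers was 145 to 158 CPM with PBS and 262 to 344 CPM with CBE in WT, and 143 to 164 and 212 to 243 CPM in MyTrMaSt. The sums of endothelium, choroid plexus and meninges markers overlapped between PBS and CBE in both genotypes. None of these markers was at 0 in any group. Their part in the changes of Cyp4f15, Gpr45 and Serpinf2 was not tested, and in RNA of a tissue fewer cells of a type and less RNA per cell cannot be told apart.

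Relatives of Cyp4f15 and Gpr45 were compared by the same test. Of 4 tested Cyp4f genes without Cyp4f15, only Cyp4f18, which encodes a leukotriene hydroxylase of white blood cells, was a DEG in any comparison. It reached the level of the count filter in WT + CBE alone, so that its values are a description. It held 22 to 37 counts in WT + CBE, 5 to 6 in MyTrMaSt + CBE and 0 or 1 in every PBS library. The last 500 bases of Cyp4f15 share 5.52% of their 30-base words with other genes, chiefly Cyp4f13. Of 19 tested orphan receptors of the brain without Gpr45, 1 was a DEG with CBE in WT, where 6.40% of all tested genes were, and 0 in the other 3 comparisons. It was Gpr26, which fell by 1.21 ± 0.34 (adjusted p = 0.0268, edgeR), and was no DEG without WT + PBS replicate 2 (-0.95, adjusted p = 0.132) or any 1 of the WT + CBE libraries (adjusted p = 0.0568 to 0.136). The median change of these 19 was -0.36 in WT and -0.10 in MyTrMaSt.

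Lars2 was lower in MyTrMaSt brains, by an amount that depended on single libraries. It lies at chr9:123366927-123462675 on the plus strand, 4.03 Mb from Myd88, one of the deleted genes. Its levels were 63.2, 23.5 and 15.6 CPM in WT + PBS and 4.83, 7.40 and 7.40 CPM in MyTrMaSt + PBS. With CBE they were 29.7, 28.6 and 39.8 CPM in WT and 14.8, 13.1, 12.97, 14.3 and 18.4 CPM in MyTrMaSt. Every MyTrMaSt library was below every WT library of the same treatment, with 14.3 against 28.6 CPM in the CBE libraries without Xist. The fitted difference was -2.23 on the log2 scale under PBS, or -1.60 without WT + PBS replicate 1, and -1.13 under CBE, where Lars2 was the one gene of the 8 that was not a DEG. CBE changed Lars2 by 0.06 ± 0.35 in WT (adjusted p = 0.949) and by 1.16 ± 0.38 in MyTrMaSt (adjusted p = 0.0690, edgeR, higher in 5 of 5 libraries). The MyTrMaSt change passed the threshold without WT + PBS replicate 1 (adjusted p = 0.00146), without WT + PBS replicate 3 (adjusted p = 0.0317), in a fit to the MyTrMaSt libraries alone (adjusted p = 0.00315) and with DESeq2 (adjusted p = 0.0309).

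Rn45s, the ribosomal RNA precursor, was highest in the library with the highest Lars2 level, but their order differed within both PBS groups. It stood at 957 CPM in WT + PBS replicate 1, which had that Lars2 level. The other WT + PBS libraries had 84.0 and 190 CPM of Rn45s, with 23.5 and 15.6 CPM of Lars2. The WT + CBE libraries had 149 to 221 CPM, the MyTrMaSt + CBE libraries 116 to 180 CPM, and the MyTrMaSt + PBS libraries, with the lowest Lars2 levels, 64.5 to 102 CPM. Within MyTrMaSt + PBS the highest Rn45s level, 102 CPM, went with the lowest Lars2 level, 4.83 CPM. The part of ribosomal RNA in the Lars2 values was not tested. The last 500 bases of Lars2 share no 30-base word with another annotated gene. Of 13 tested mitochondrial aminoacyl-tRNA synthetases without Lars2, 0 were DEGs in any of the 4 comparisons with edgeR, DESeq2 or limma (9 of 52 values with an unadjusted p below 0.05, against 18.3% of all values in these comparisons), and their median difference between genotypes was 0.06 on the log2 scale under PBS and 0.06 under CBE.

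**Figure D3:**
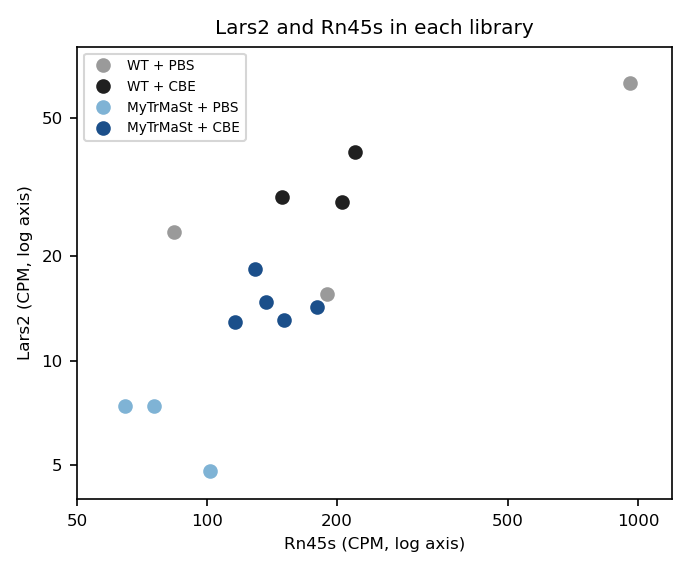
Lars2 against Rn45s in the 14 libraries (both axes CPM, logarithmic), coloured by group. WT + PBS replicate 1 lies apart at 957 CPM of Rn45s and 63.2 CPM of Lars2, and the MyTrMaSt + PBS libraries lie lowest for Lars2, at 4.83 to 7.40 CPM.

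The families of the remaining genes were counted against all tested genes, for which 3.12% of the values in the 4 comparisons were DEGs and 18.3% had an unadjusted p below 0.05. Of 6 tested glycerophosphodiester phosphodiesterases without Gdpd3, 7 structure-specific endonuclease genes without Slx1b and 7 RING ligases related to Rnf167, 0 were DEGs between the genotypes or with CBE with edgeR, DESeq2 or limma. An unadjusted p below 0.05 was reached by 2 of 24, 6 of 28 and 7 of 28 values over the 4 comparisons. Their median differences between genotypes under PBS were 0.19, -0.17 and 0.15 on the log2 scale, where the median of all tested genes was 0.00. Of 9 tested genes of phosphatidylserine and phosphatidylethanolamine synthesis, 1 was a DEG, Pcyt2, an enzyme of the ethanolamine branch, which fell by 1.07 ± 0.25 with CBE in WT (adjusted p = 0.00909, edgeR). It was not a DEG with limma, nor without WT + PBS replicate 1, where the change was -0.62 (adjusted p = 0.0153) and under 2-fold.

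Genes next to the 8 were compared to see whether the differences extended along the chromosome. For each gene up to 5 nearest tested genes on each side were taken, 68 different genes in all. Distances are those between the lower coordinates of the genes, whatever their strand. Under PBS 1 of the 68 (1.47%) was a DEG between the genotypes, against 0.160% of all genes, and under CBE 2 of 68 (2.94%), against 2.01%. DESeq2 called 4 of the 68 under PBS and 2 under CBE. An unadjusted p below 0.05 (edgeR) was reached by 19 of 68 under PBS, against 16.8% of all genes, and by 7 of 68 under CBE, against 8.06%. The PBS gene with edgeR was 4930526I15Rik, 1056 kb from the start of Lars2, which was 1.29 lower on the log2 scale in MyTrMaSt (adjusted p = 0.0300, edgeR). The CBE genes with edgeR were Nupr1, a stress-induced chromatin protein 65.7 kb from Slx1b (-1.07, adjusted p = 0.0182), and Cxcl16, a chemokine 193 kb from Rnf167 (-2.59, adjusted p = 4.5e-07). Cxcl16 was thus lower in MyTrMaSt than in WT where Rnf167 was higher. Between Slx1b and Gdpd3 lie Bola2, Coro1a and Mapk3, with PBS differences of -1.19, -0.81 and -1.02 (adjusted p = 0.151, 0.151 and 0.110) and CBE differences of 0.06, -0.29 and 0.07. None of these 3 was a DEG with edgeR under either treatment, although Bola2 and Mapk3 were DEGs under PBS with DESeq2. The PBS groups overlapped for Bola2, at 143.01 to 497 CPM in WT and 91.9 to 143.45 CPM in MyTrMaSt. The level of 497 CPM was that of WT + PBS replicate 1, the library that stood apart from its group.

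The same was done for the 4 deleted genes. Lars2 shares a chromosome with Myd88 and Cyp4f15 with Ticam1, the latter at 23.6 Mb, and the other 6 genes lie on chromosomes without a deleted gene. Of 40 neighbours of the deleted genes, 0 were DEGs between the genotypes under PBS with edgeR or limma and 1 with DESeq2 (6 at an unadjusted p below 0.05, against 16.8% of all genes), and 1 of 40 was under CBE, Ecscr (-1.24, adjusted p = 0.0302). Over the 108 neighbours of both kinds, 1 was a DEG under PBS and 3 under CBE. The PBS count rested on single libraries. It was 11 without WT + PBS replicate 2, where Bola2, Coro1a and Mapk3 were among the DEGs, and 3 without WT + PBS replicate 3. It was 0 without WT + CBE replicate 2 or any 1 of the MyTrMaSt + PBS libraries, and 5 with DESeq2. The CBE count was 1 without WT + CBE replicate 2 or 3 or without MyTrMaSt + CBE replicate 1 or 2, Cxcl16 each time. Ecscr was also no DEG without WT + CBE replicate 1 (adjusted p = 0.129, edgeR) or MyTrMaSt + CBE replicate 3 (adjusted p = 0.0921).

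**Figure D4:**
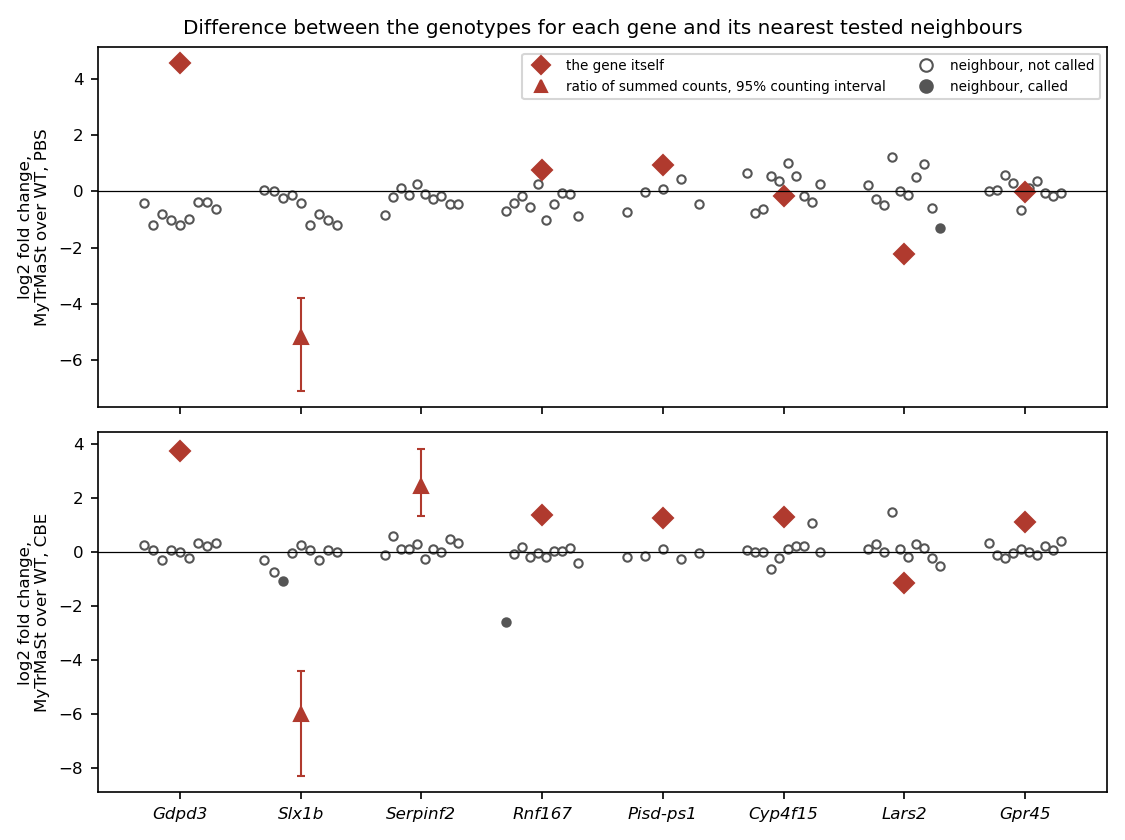
Log2 fold change of MyTrMaSt over WT (vertical axis) under PBS (top) and CBE (bottom) for each of the 8 genes (red) and its nearest tested neighbours in chromosome order (grey circles, filled where the neighbour was a DEG). Red triangles are ratios of summed counts with 95% counting intervals, for genes with 1 group at or under 3 counts. Gdpd3, at 4.57 under PBS and 3.73 under CBE, and Slx1b lie outside the range of their neighbours. Serpinf2 is not drawn under PBS, where both groups were at the limit of 3 counts.

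The genes with the most similar pattern were found by the Pearson correlation of log2 CPM over the 14 libraries, which share group, depth and sex, and the values are descriptions. Of the genes reported here, those closest to Gdpd3 were Pisd-ps1 (r = 0.881) and Wwox (r = 0.881), an oxidoreductase gene with 15.3 and 14.8 CPM in WT and 32.3 and 28.3 CPM in MyTrMaSt with PBS and CBE. Slx1b was most like Ppdpf (r = 0.893), Ifi27 (r = 0.824), an interferon-induced gene, and Nnt (r = 0.817), the mitochondrial transhydrogenase gene known to be mutated in C57BL/6J mice. Nnt had means of 21.0 and 18.3 CPM in WT and 10.8 and 6.78 CPM in MyTrMaSt.

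For the other 6 members the most similar genes were ranked in the same way. Serpinf2 was most like Shisa8 (r = 0.933), Phka1 (r = 0.898) and Aldoc (r = 0.897), the aldolase of astrocytes, which had its highest mean in MyTrMaSt + CBE, 95.1 ± 10.1 CPM against 58.3 ± 7.89 CPM in MyTrMaSt + PBS (SD). Rnf167 was most like Ypel5 (r = 0.882), Pisd-ps1 (r = 0.869) and Gdpd3 (r = 0.866), and Pisd-ps1 was most like Gdpd3, Rnf167 and Scp2 (r = 0.849). Cyp4f15 was most like Aifm3 (r = 0.886), Elmo2 (r = 0.873) and S100b (r = 0.872), a calcium-binding protein of astrocytes at 258 ± 43.7 CPM in WT + CBE and 367 to 384 CPM on average in the other groups. Lars2 was most like Spint2 (r = 0.930), Phf2 (r = 0.908) and 4930526I15Rik (r = 0.881), its neighbour above. Gpr45 was most like 6030458C11Rik (r = 0.874), Dnlz (r = 0.873) and Strip2 (r = 0.868).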

How the data were processed

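Brain RNA of 14 mice was sequenced in 4 groups. Libraries were of the bulk MARSseq type, which reads the 3' end of transcripts, and the authors used a NextSeq, aligned reads to mm10 with hisat and kept those with 1 position. The deposited table holds raw counts per gene, not normalized. The submitters' processing notes also name cutadapt and HTSeq. Use of strand and molecular identifiers is not given in the sources used here. The deposited normalized values and the authors' fold changes and p-values were not used.

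The analysis ran in edgeR 4.0.16 under R 4.3.3, with filterByExpr, TMM, and a quasi-likelihood fit of 4 group means over all 14 libraries, with Benjamini-Hochberg adjustment over 11852 genes. All adjusted p-values come from this fit unless another tool (DESeq2 1.42.0, limma 3.58.1) is named. A DEG needed a 2-fold difference and an adjusted p under 0.05, the interaction only the latter. Where 1 group never exceeds 3 counts, the ratio of summed counts per summed effective library size is given with an exact (Clopper-Pearson) 95% interval, which covers counting error only. These ratios were added after seeing the data. Correlations used log2 CPM with 0.5 added. Positions come from GENCODE M21 on GRCm38, found for 99.7% of tested genes. The fit, tested on simulated data for CBE versus PBS in WT with 11640 genes, recovered 99% of 4-fold and 62% of 2-fold changes. The changed genes left out those with low counts, and all genes and libraries shared a single dispersion. Recovery needed the adjusted p alone, without the 2-fold limit of a DEG. These shares therefore do not cover counts as low as those of Slx1b, Serpinf2 and Gdpd3 in their low groups.

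The members and lists were chosen with earlier results of these data known. Genes named are the members, list genes that were DEGs (at most 4 per list), neighbours (5 on each side) that were DEGs between genotypes, and the 3 genes most correlated with each member, of which 1 is not reported here. Others are named as markers or checks, for overlap with or position beside a member, or after their values were seen (neighbours that were DEGs with CBE). The fit also gave the members' differences between genotypes. Because that difference chose them, their values and DEG counts are descriptions, printed without a p. Other scalings, filters, tools, samples and covariates were tried.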

Additional observations from a re-analysis of the deposited data

How the results depend on the processing

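Each comparison was repeated under 22 alternatives, 14 of which left out 1 library each. The number of the 8 genes that were DEGs with CBE in WT was 2, and 1 in a fit to the groups compared alone (Gpr45) and with the Xist level as a covariate (Cyp4f15). In MyTrMaSt it was 1, and 2 with DESeq2, 2 with the groups compared alone and 0 where every library had to hold 10 counts, a filter that left out Gdpd3, Slx1b and Serpinf2. The interaction called 0, and 1 with DESeq2. Leaving out 1 library gave 2 to 3 in WT (3 with Gdpd3, whose WT values are a description), 1 to 2 in MyTrMaSt and 0 in the interaction. Between the genotypes, where the calls describe the choice of the genes, the count under PBS was 3, and 2 of 6 with DESeq2, which gave Slx1b and Serpinf2 no adjusted p, 2 with limma or the Xist covariate (without Lars2), 1 with the groups compared alone (Gdpd3) and 1 of the 5 genes left where every library had to hold 10 counts (Lars2). Under CBE it was 7, and 8 with DESeq2 or the groups compared alone (with Lars2), 6 with limma (without Gpr45) and 4 of those 5 genes. Leaving out 1 library gave 2 to 5 under PBS, with 2 without any 1 of the MyTrMaSt + PBS libraries (Lars2 lost) and 5 without WT + PBS replicate 1 (Rnf167 and Pisd-ps1 gained), and 4 to 8 under CBE. Under CBE Gpr45 lost its call without any 1 of the WT + CBE libraries or without MyTrMaSt + CBE replicate 1, 3 or 4, Cyp4f15 without WT + CBE replicate 1 or 2, and Serpinf2 without WT + CBE replicate 1, while Lars2 gained one without WT + PBS replicate 1 or 3. Of the 108 neighbours, 1 was a DEG between the genotypes under PBS, and 5 with DESeq2, 0 with the groups compared alone, 0 with the Xist covariate and 0 to 11 without 1 library. Under CBE 3 were DEGs, and 1 to 4 without 1 library.

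Replicate numbers did not pair the samples. Deviations of same-numbered libraries correlated between -0.173 and 0.160, over 0.1 in 3 of 18 pairs, and 7 of 12 libraries correlated best with their own number. With the replicate number as a block 2 members were DEGs between the genotypes under PBS (Lars2 lost) and 6 under CBE (Gpr45 lost), the neighbours' PBS count was 0, and the counts of 2, 1 and 0 members with CBE in WT, in MyTrMaSt and in the interaction and of 3 neighbours under CBE were unchanged.

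Of 324 differences of single genes between the genotypes, 318 stayed within the spread of replicates and 6 moved beyond it. Of 428 changes with CBE and interactions, 410 stayed on their side of the threshold, 7 passed and 2 lost it, and 9 changed sign, all of them changes with CBE that were not called. Lars2 in WT was -0.0099 with DESeq2, -0.26 with the Xist covariate, and -0.30 to 0.70 without 1 library, below 0 without WT + PBS replicate 2 or 3 or WT + CBE replicate 3. Rnf167 in WT was 0.032 with limma. Without 1 library it was -0.41 to 0.31, and Slx1b in WT -0.23 to 0.15, each above 0 without WT + PBS replicate 1, and Cyp4f15 in MyTrMaSt was -0.024 to 0.32, below 0 without MyTrMaSt + PBS replicate 2. The cause was not tested. Fits to the groups compared alone left out Gdpd3 and Serpinf2 in WT and Slx1b in MyTrMaSt for low counts, and gave no interaction. Depth limits Slx1b and Serpinf2, whose low groups hold at most 3 counts per library.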

Other observations

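The share of neighbours of the 8 genes that were DEGs with CBE lay near that of all tested genes in WT and was 5.88% against 3.89% in MyTrMaSt. In WT 4 of the 68 neighbours (5.88%) were DEGs with CBE, all higher, where 6.40% of all tested genes were DEGs. They were Apobr (log2 change 1.93), Nupr1 (1.70), Cxcl16 (3.63) and Rasal3 (2.66), which act in lipoprotein uptake, stress, chemotaxis and Ras signalling of blood cells. In MyTrMaSt 4 of the 68 (5.88%, against 3.89% of all genes) were DEGs, all higher, namely the sulfotransferase gene Sult1a1 (1.44), Cxcl16 (1.74), Inca1 (1.30) and Rasal3 (1.48). In the interaction 0 of the 68 passed with edgeR, DESeq2 or limma, and 15 had an unadjusted p below 0.05, where edgeR called 0.489% of all genes and 12.5% had such a p. Apobr, Cxcl16, Rasal3 and Inca1 reached the level of the count filter in at most 1 PBS library of each genotype, so that their calls are descriptions, and that of Inca1 was lost without MyTrMaSt + PBS replicate 1 (1.17) or 2 (1.27). The genes named were chosen after their values were seen, by the same calls as above, and share libraries across the comparisons.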
